A study of Drosophila melanogaster with 64 samples.

Results

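The glutathione S-transferase (GST) genes of Drosophila melanogaster were followed in fly heads after traumatic brain injury (TBI). Members were the genes whose symbol starts with GstD, GstE, GstO, GstS, GstT or GstZ and a digit, the letter naming the delta, epsilon, omega, sigma, theta or zeta class. All 35 genes matched by this rule were among the 17481 genes of the deposited count table, with 11 delta, 14 epsilon, 3 omega, 1 sigma, 4 theta and 2 zeta genes. After TBI the members called higher at 3 and 6 h were GstD1, GstD2 and GstD4, at 12 h GstD6, and at 24 h GstD1, GstD5, GstD6 and GstT4 on library day 2. GstS1 and GstZ2 fell between 3 h and 12 h. With 1 library left out, the GstD4 call was lost in 5 of 6 fits at 3 h and 6 of 6 at 6 h. The GstS1 call was lost in 4 of 6 fits at 3 h and at 6 h and in 0 of 6 at 12 h. GstT4 was called lower at 3 h, at the edge of the threshold, and higher at 3 d, and each of these calls was lost when any 1 of 4 libraries was left out.

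All flies were w[1118] males injured at 3 d of age and kept at 25 C with 12 h of light, and each sample pooled 20 whole heads. The groups were uninjured 3 d old controls (time 0), flies given a sham procedure and flies given a severe TBI, the last pair sampled 1, 3, 6, 12 and 24 h later and then on days 3, 7, 10 and 15. Each group had 3 samples that the labels call biological replicates, and 2 at 15 d. Libraries were made on 2 days, with the controls and all times to 24 h on library day 2 (33 libraries) and the controls, 24 h and all later times on library day 1 (31 libraries). Controls were collected at time 0 only, so the sham flies of later times were also older than the controls.

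Glutathione S-transferases join the tripeptide glutathione to reactive compounds, which makes them easier to remove, and they take part in the defence against oxidative damage. The delta and epsilon classes are specific to insects and arose largely by local gene duplication. In flies many of them respond to the transcription factor CncC, the relative of mammalian Nrf2, which Keap1 holds in check, and GstD1 is widely used as a reporter of that pathway. The zeta class acts in tyrosine breakdown, as maleylacetoacetate isomerase, and the sigma enzyme GstS1 conjugates products of lipid peroxidation.

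In the BDGP6.54 annotation the members lay on arms 2R (17 genes), 3R (13), 3L (3) and X (2). All 11 delta genes formed 1 run of 20.8 kb on 3R, at positions 12364776 to 12385624, in which GstD1 spans 12367817 to 12369268 and GstD2 spans 12371971 to 12372704. GstE1 to GstE10 formed a run of 10 genes over 13.2 kb on 2R, at 18396638 to 18409835. GstS1 (2R, 17093246 to 17099501), GstZ2 (3R, 9456815 to 9460652) and GstT4 (X, 13404749 to 13409323) lay outside these runs. No member shared exon or intron sequence with another gene on its own strand, and 7 overlapped a gene on the other strand. These were GstE1 with GstE10, GstE9 with imd, GstE12 with CG3894, GstE13 with CG18659, GstT2 with CG12926 and GstO2 with se. Whether strand was used in counting is not stated, so reads of these 7 genes and their partners may not have been told apart. Delta and epsilon genes are also close copies of each other, and how reads were shared between them was not tested.

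A day 1 library held 9.16 to 26.4 M reads counted in genes and a day 2 library 18.6 to 44.9 M. Neuron markers were high in every library (nSyb at 1378 CPM or more) and the rhodopsin gene ninaE reached at least 15138 CPM, while the summed testis and accessory gland markers stayed at or under 1.04 CPM and the gut markers at or under 21.4 CPM. The mitochondrial share of gene counts was 1.64% to 15.5% on day 1 and 11.2% to 24.8% on day 2. On day 2 the library of sham replicate 3 at 12 h stood apart, with the lowest mitochondrial share of the day (11.2%) and the highest photoreceptor marker sum (55129.7 CPM, against 30953.5 and 36140.4 CPM in the other sham libraries of that time). Sham replicate 1 of that time had 16.5% of reads without a unique alignment, against 4.54% and 4.63% in the other 12 h sham libraries. It also had the lowest share of reads in genes (67.9%). The 12 h calls of members are given with and without sham replicate 3, while 12 h medians and marker calls include both libraries. These are whole heads, so fewer cells of a type and less RNA per cell cannot be told apart for any gene below.

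Levels were first set side by side in uninjured controls, as CPM (the count scaled to a library of 1 M reads) divided by exonic length in kb (mean ± SD, n = 3). On day 2 GstE9 was highest at 174 ± 42.9 CPM per kb, followed by GstE12 at 155 ± 44.5 and GstD1 at 116 ± 20.0. The SDs of these 3 genes are spreads between libraries, and all 3 genes were read in the same libraries. Their order was the same in each control library of day 2, and the differences were not tested. GstE6 came next at 94.3 ± 13.8, then GstE3 at 63.1 ± 17.4 and GstD9 at 56.2 ± 4.28. On day 1 the same 3 genes led, with GstE12 at 288 ± 45.5, GstD1 at 210 ± 41.1 and GstE9 at 160 ± 30.7 CPM per kb. Over all libraries of a day, injured and sham included, GstD1, GstE12 and GstE9 together made up 37.5% of the mean GST total in CPM on day 2 and 50.8% on day 1. At the other end, GstD4, GstD5, GstD6, GstD7, GstD8, GstE4 and GstE10 had control means under 0.5 CPM per kb on both days. The delta run thus held a gene near the top of the family beside 5 neighbours close to the detection limit.

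**Figure D1:**
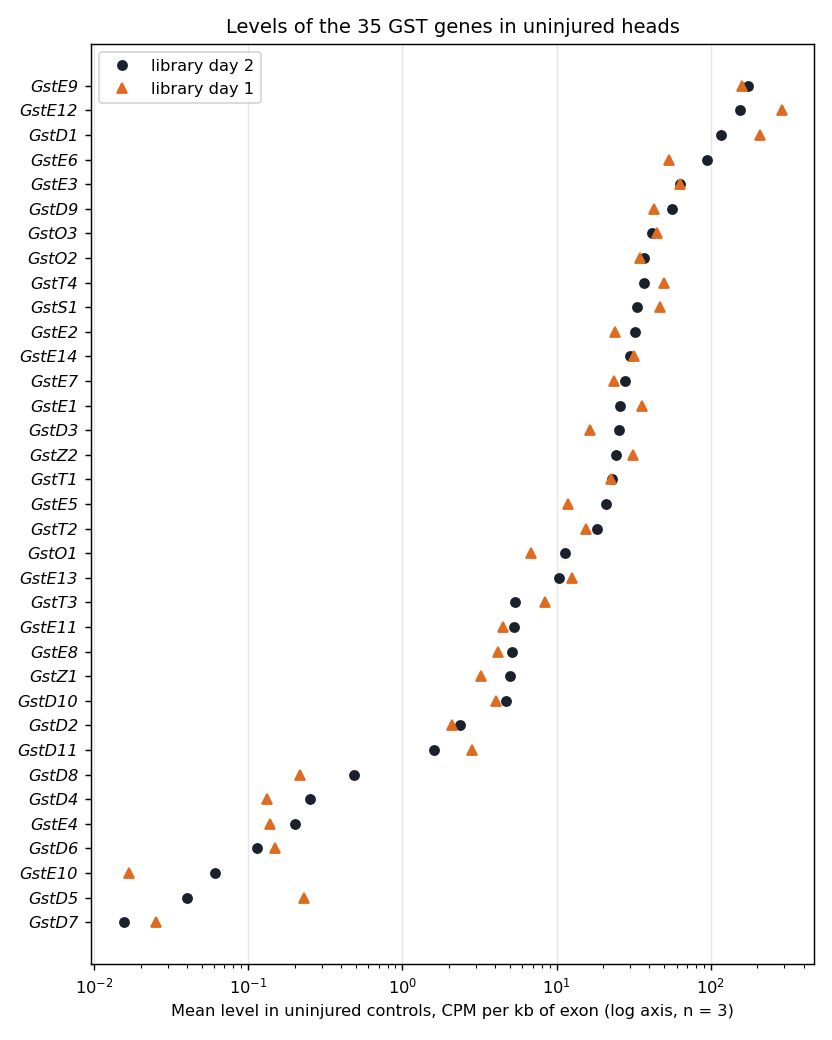
Level of each of the 35 GST genes in the uninjured control libraries, in CPM per kb of exon on a log scale, for library day 2 and library day 1. GstE9, GstE12 and GstD1 led on both days, and 7 genes had means under 0.5 CPM per kb.

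Summed over the family, GST transcripts took 638 to 1491 CPM of a day 2 library (median 918) and 914 to 2123 CPM of a day 1 library (median 1552). The library day moved these levels. Among the 9 RNAs made into libraries on both days 14 of 31 tested members were higher on day 2 and 6 were lower by edgeR's quasi-likelihood test, where 34.2% of all genes were higher and 32% lower. GstD1 was lower on day 2 by a log2 difference of -0.80 ± 0.10 (SE, adjusted p = 1.05e-05, edgeR) and GstE12 by -0.77 ± 0.09. GstE5 was higher by 0.94 ± 0.08 and GstE6 by 0.88 ± 0.09. Levels are therefore compared only within a library day below.

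The TBI and sham libraries of each time were set against each other in 1 edgeR quasi-likelihood model per library day. A gene is said to rise or fall where the p-value, adjusted over all genes tested by the Benjamini-Hochberg method, was under 0.05; changes are log2 fold changes ± SE, and levels are CPM scaled by library size and TMM factor. The filter on low counts kept 32 members on day 2, leaving out GstD7, GstE4 and GstE10, and 31 on day 1, leaving out GstD4, GstD6, GstD7 and GstE10. A gene can pass that filter through the group in which it is high, so counts over tested members describe those genes only.

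After 1 h 0 of 32 tested members passed with edgeR, where 7.39% of all genes did. DESeq2 called 0 as well, and 3 members (GstD3, GstD4 and GstT3) had an unadjusted p under 0.05. After 3 h 3 members rose (GstD1, GstD2 and GstD4) and 3 fell (GstS1, GstT4 and GstZ2), beside 10.5% and 6% of all genes. After 6 h 3 rose (GstD1, GstD2 and GstD4; 7.88% of all genes) and 2 fell (GstS1 and GstZ2; 4.26%). After 12 h 1 rose (GstD6; 4.99%) and 2 fell (GstS1 and GstZ2; 3.63%). Without sham replicate 3 of that time 3 rose (GstD1, GstD6 and GstD9) and 3 fell (GstE14, GstS1 and GstZ2). At 24 h on day 2, 4 rose (GstD1, GstD5, GstD6 and GstT4; 6.2%) and 0 fell (2.2%). As shares of the 32 tested members these counts were 9.38% up and 9.38% down at 3 h, 9.38% and 6.25% at 6 h, 3.12% and 6.25% at 12 h and 12.5% and 0% at 24 h. The difference between these shares and those of all genes was not tested.

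**Figure D2:**
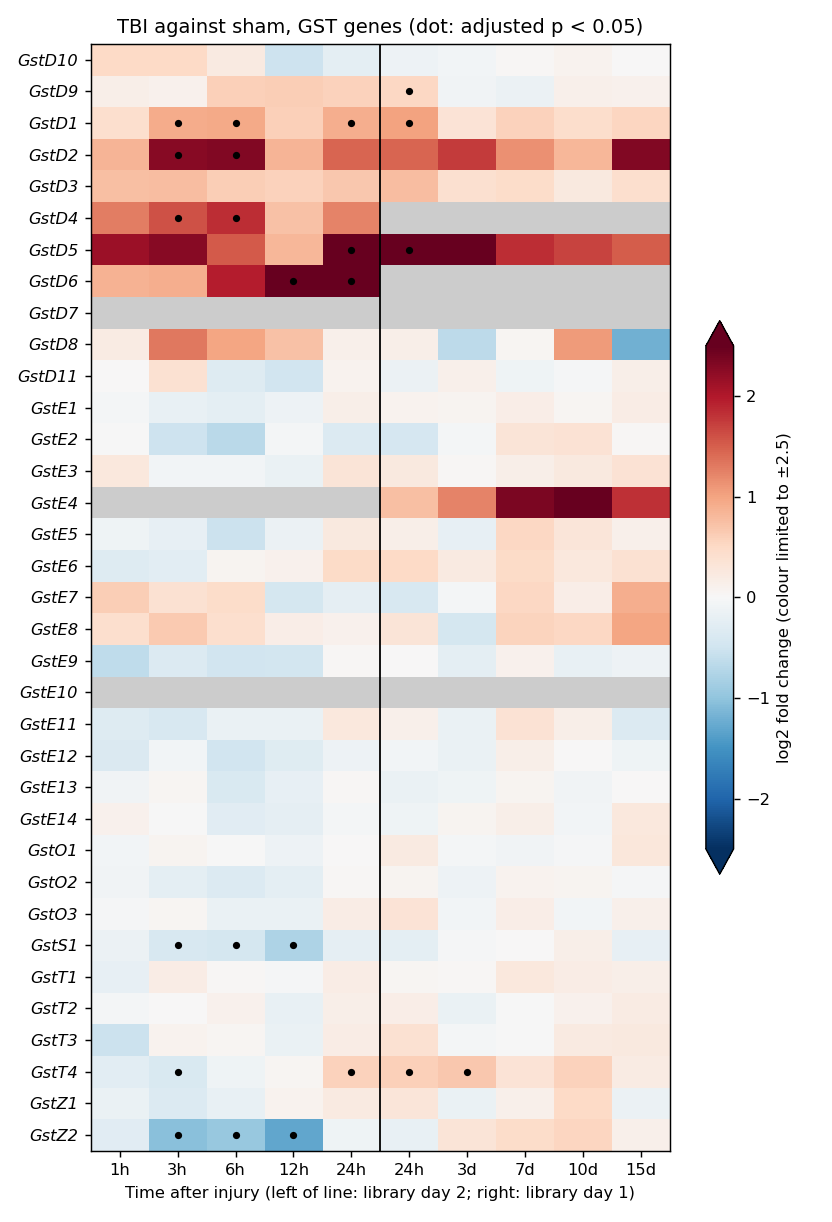
Log2 fold change of TBI over sham for each GST gene (rows, by class) at each time and library day (columns); dots mark adjusted p under 0.05 by edgeR's quasi-likelihood test and grey cells were not tested. The rises at 3 to 24 h lie in delta rows and in GstT4 at 24 h, and the falls in GstS1, GstZ2 and, at 3 h, GstT4.

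GstD1, an abundant delta enzyme with activity towards many electrophiles, was the member whose rise rested on the most counts. At 3 h its sham libraries held 80.2, 113 and 66.9 CPM and its TBI libraries 192, 189 and 116 CPM. At 6 h the sham values were 75.4, 64.8 and 58.0 CPM and the TBI values 153, 133 and 93.0 CPM. Every TBI library stood above every sham library at both times. The change was 0.93 ± 0.22 at 3 h (adjusted p = 0.00399, edgeR) and 0.94 ± 0.22 at 6 h (0.00526). Uninjured controls of that day held 79.3, 112 and 101 CPM, which overlapped the sham range at 3 h. The 6 h sham libraries all lay below these controls, and TBI replicate 3 of that time lay among them.

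At 1 h GstD1 measured 82.2, 88.8 and 99.0 CPM in sham and 129, 113 and 118 CPM in TBI libraries. The groups did not overlap, but the change of 0.41 ± 0.22 missed the threshold (adjusted p = 0.356, edgeR); with only the 1 h groups in the model it passed (0.0221). At 12 h the sham libraries held 57.4, 53.6 and 97.7 CPM and the TBI libraries 92.1, 101 and 120 CPM. The groups overlapped through sham replicate 3, which stood apart in its markers, and the change was 0.59 ± 0.22 (adjusted p = 0.116, edgeR). Without that library it was 0.92 and passed (0.00942). At 24 h on day 2 sham held 69.9, 75.0 and 84.6 CPM and TBI 148, 119 and 164 CPM, again without overlap, for a change of 0.91 ± 0.22 (0.00922). This 24 h call was lost without sham replicate 1 (0.84, 0.0644) or TBI replicate 3 (0.80, 0.0614), and the 3 h call with only the 3 h groups in the model (0.92, 0.0537).

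GstD2, the neighbour of GstD1 in the run, had a low level and a larger relative change. At 3 h it measured 2.12, 5.13 and 1.20 CPM in sham and 17.2, 14.7 and 8.79 CPM in TBI libraries. At 6 h it measured 3.33, 2.20 and 0.94 CPM in sham and 13.9, 11.7 and 5.66 CPM in TBI libraries. All TBI libraries were above all sham libraries at both times, and controls held 1.38, 2.01 and 1.79 CPM. The changes were 2.28 ± 0.52 (adjusted p = 0.00269, edgeR) and 2.31 ± 0.53 (0.00399), or 4.86-fold and 4.96-fold. With only the 6 h groups in the model the 6 h call was lost (0.0539). At 24 h sham replicate 2 held 4.90 CPM against 0.745 and 1.76 CPM in the other sham libraries, the TBI libraries held 3.40, 9.50 and 7.51 CPM, and the change of 1.46 ± 0.53 did not pass (0.0963).

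GstD4, GstD5 and GstD6, which lie past GstD3 along the run, averaged under 1 CPM on day 2, and their calls rest on few reads. GstD4 was counted 8, 6 and 6 times in the 3 h sham libraries and 25, 15 and 21 times in the TBI libraries (1.59 ± 0.49, adjusted p = 0.0236, edgeR). At 6 h the counts were 3, 2 and 6 against 13, 9 and 9 (1.85 ± 0.58, 0.0349). No group overlapped once scaled, and both calls were lost when any 1 library of the time compared was left out, apart from TBI replicate 3 at 3 h.

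GstD6 was read 0, 0 and 1 times in the 12 h sham libraries and 2, 11 and 5 times in the TBI libraries. The summed counts of 18 and 1 gave a depth-scaled ratio of 18.2, with an exact 95% interval from 2.87 to 758 that covers counting error only, and the edgeR call was lost without TBI replicate 2 (adjusted p = 0.0824) and kept without sham replicate 3. At 24 h GstD6 was read 0, 2 and 3 times in sham and 7, 17 and 20 times in TBI libraries of day 2 (3.21 ± 0.58, adjusted p = 0.000402, edgeR). The filter left it untested on day 1. In the day 1 libraries of the same RNAs it was read 0, 2 and 1 times in sham and 9, 21 and 13 times in TBI.

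GstD5 was the delta gene with the highest relative change at 24 h. On day 2 its sham libraries held 0.298, 0.511 and 0.135 CPM and its TBI libraries 1.51, 1.87 and 7.79 CPM. The TBI libraries all lay above the sham libraries, and TBI replicate 3 stood well above the other TBI libraries. The change was 3.63 ± 0.66 on day 2 (adjusted p = 0.000501, edgeR) and 2.65 ± 0.66 on day 1 (0.00885). The day 1 libraries came from the same RNAs, so they repeat the library step and not the flies, and there the TBI values were 1.38, 1.74 and 5.81 CPM against 0.414, 0.788 and 0.191 CPM. Without TBI replicate 3 the day 1 change was 1.72 and did not pass (0.133), and with only the 24 h groups in the model the day 2 call was lost (0.0539).

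The other delta genes moved less. GstD9 measured 36.9, 41.6 and 38.2 CPM in the 24 h sham libraries of day 1 and 51.0, 62.0 and 54.3 CPM in the TBI libraries. These groups did not overlap and the change was 0.52 ± 0.14 (adjusted p = 0.0132, edgeR). The call was lost without sham replicate 1 (0.0743) or TBI replicate 2 (0.0510), and the day 2 libraries of those RNAs gave 0.58 ± 0.20, which did not pass (0.0711). GstD3 changed by 0.58 to 0.78 between 1 h and 24 h on day 2 and passed at no single time. GstD8 ran from 0.14 to 1.32, GstD10 from -0.52 to 0.49 and GstD11 from -0.49 to 0.39 over these 5 times, and none of the 3 passed.

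**Figure D3:**
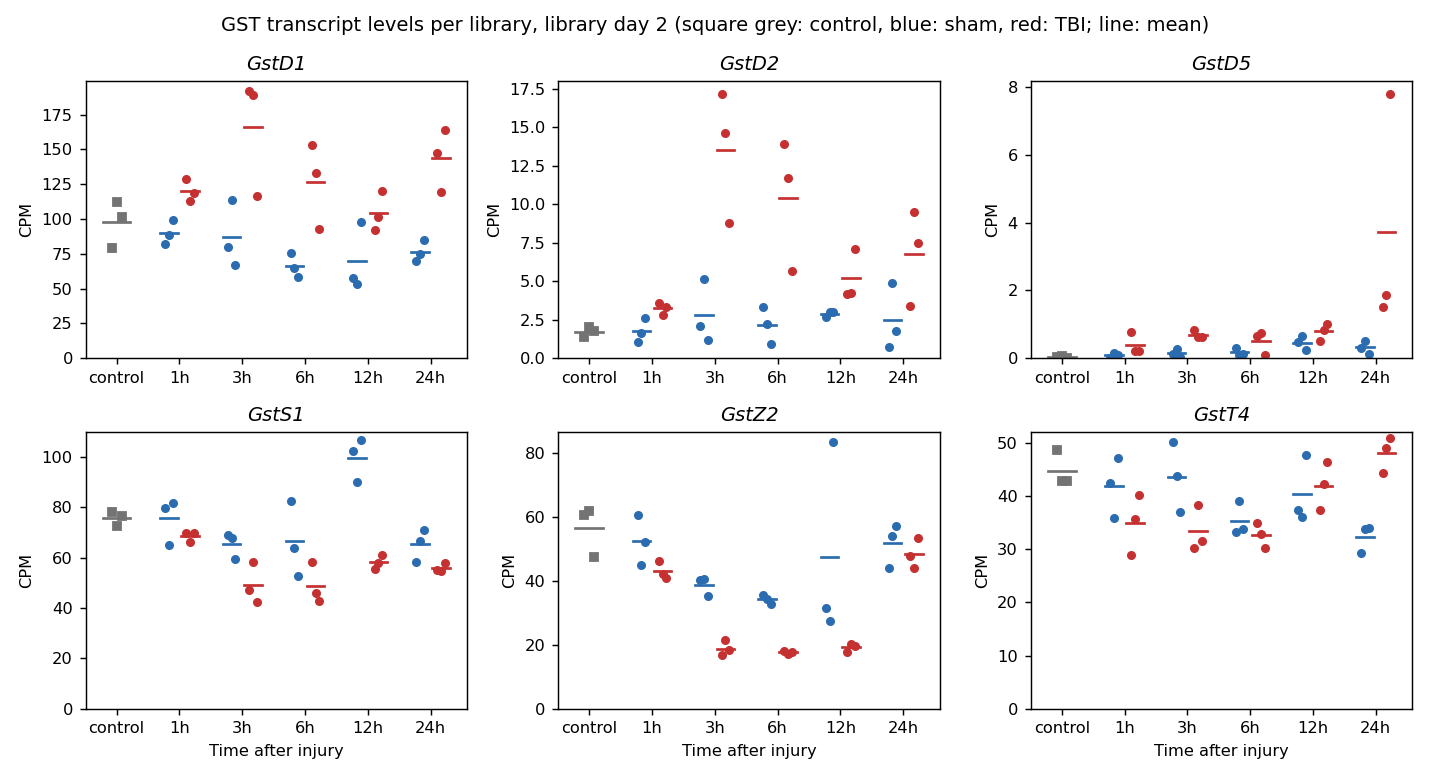
CPM of GstD1, GstD2, GstD5, GstS1, GstZ2 and GstT4 in each library of day 2, by hours after the procedure, for control, sham and TBI, with group means. TBI libraries of GstD1 and GstD2 stood above sham at 3 and 6 h, and those of GstZ2 stood below sham from 3 to 12 h.

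GstS1, the single sigma gene, fell from 3 h to 12 h. At 3 h sham libraries held 68.9, 67.7 and 59.3 CPM and TBI libraries 47.2, 58.3 and 42.4 CPM, and at 12 h they held 102, 90.1 and 107 CPM against 55.4, 57.8 and 61.2 CPM. The groups were separate at both times, by a wide margin at 12 h. The changes were -0.41 ± 0.13 at 3 h (adjusted p = 0.0378, edgeR) and -0.78 ± 0.13 at 12 h (0.000259). At 6 h sham measured 82.6, 63.8 and 52.7 CPM and TBI 58.1, 45.8 and 42.6 CPM, which overlapped, with a change of -0.44 ± 0.13 (0.0301). The 3 h call was lost without any 1 of 4 libraries (sham replicates 1 and 2, TBI replicates 1 and 3) and the 6 h call without any 1 of 4 (sham replicates 1 and 2, TBI replicates 2 and 3), while the 12 h call held without each library (-0.72 without sham replicate 3). With only the groups of a time in the model the 3 h and 6 h calls were lost as well (adjusted p = 0.0902 and 0.301, edgeR).

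At 1 h GstS1 measured 79.8, 65.2 and 81.6 CPM in sham and 69.9, 66.3 and 69.6 CPM in TBI libraries, with overlap and no call (-0.14 ± 0.13). At 24 h on day 2 it measured 58.1, 66.6 and 70.9 CPM against 55.0, 54.5 and 58.0 CPM, just apart, and the change of -0.22 ± 0.13 did not pass (adjusted p = 0.357, edgeR). Controls held 78.0, 72.3 and 76.6 CPM. Among the control and the 5 sham groups of day 2 GstS1 was the 1 member that differed (joint test, 0.0101; 11.3% of all genes differed), and its 12 h sham libraries were the highest of that day. That call was lost without sham replicate 1 at 12 h, the library with 16.5% of reads without a unique alignment.

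GstZ2, 1 of the pair of zeta genes, fell in the same hours. At 3 h sham libraries held 40.3, 40.7 and 35.5 CPM and TBI libraries 16.8, 21.5 and 18.3 CPM. At 6 h the values were 35.7, 34.3 and 32.8 CPM in sham and 18.1, 17.1 and 17.8 CPM in TBI libraries. Replicates lay close together and the groups were far apart. The changes were -1.04 ± 0.24 (adjusted p = 0.00293, edgeR) and -0.95 ± 0.24 (0.00838), or 2.06-fold and 1.94-fold lower.

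At 12 h GstZ2 measured 31.4, 27.6 and 83.5 CPM in sham and 17.9, 20.2 and 19.8 CPM in TBI libraries. The groups were separate, but sham replicate 3 was far above the rest. The change of -1.30 ± 0.24 (adjusted p = 0.000596, edgeR) became -0.61 without that library and still passed (0.0033), and with only the 12 h groups in the model the call was lost (0.174). At 24 h the values were 44.2, 54.1 and 57.4 CPM in sham and 47.8, 44.2 and 53.4 CPM in TBI libraries, which overlapped (-0.10 ± 0.24). Controls held 60.7, 61.9 and 47.5 CPM. The other zeta gene, GstZ1, was at 2.77 to 10.5 CPM on day 2 and passed at no time, with changes from -0.33 to 0.23.

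Markers of fat body, a tissue rich in metabolic enzymes, moved in the same hours as GstS1 and GstZ2. The summed fat body markers (apolpp, FASN1, Lsp2, Fbp1 and Lsp1beta, with Fbp1 at 0.369 CPM or less in every library) were 5615, 8186 and 5599 CPM in the 3 h sham libraries and 3526, 3129 and 2152 CPM in the TBI libraries. At 12 h the sums were 11761, 10549 and 11194 CPM in sham and 6066, 8439 and 7507 CPM in TBI libraries. Of the 4 tested markers 1 fell at 1 h (apolpp), 2 at 3 h (apolpp and FASN1), 1 at 6 h (FASN1), 2 at 12 h (Lsp2 and Lsp1beta) and 2 at 24 h (Lsp2 and Lsp1beta), and 0 rose. Fat body markers also fell at 24 h, when neither GstS1 nor GstZ2 was called. GstS1 is also known from flight muscle, and the summed muscle markers (Mhc, up, Mlc2 and Act57B) were 1911, 2159.6 and 2174 CPM in sham and 2056, 1982 and 2323 CPM in TBI libraries at 3 h and 1322, 2015 and 1234 CPM against 1637, 1392 and 1338 CPM at 12 h. Of these 4 Mhc fell at 12 h and 24 h and Act57B rose at 6 h and 24 h. The glial marker repo fell at 1, 3 and 6 h, the hemocyte markers Hml and Sr-CI fell at 1 h, and ninaE fell at 12 h, while in the 24 h libraries of day 1 the neuron markers Syt1 and brp and the glial Eaat1 fell. The part of these shifts in the changes of GST genes was not tested.

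GstT4, a theta gene on X, changed direction with time. At 3 h sham libraries held 50.1, 43.6 and 36.9 CPM and TBI libraries 30.3, 38.3 and 31.5 CPM, which overlapped (-0.39 ± 0.13, adjusted p = 0.0498, edgeR). This call was at the edge of the threshold: it was lost with the replicate number as a block (0.0524), with only the 3 h groups in the model, and without 4 of the 6 libraries. At 24 h on day 2 sham measured 29.2, 33.8 and 34.0 CPM and TBI 44.4, 48.9 and 51.0 CPM. The groups were clearly apart and the change was 0.57 ± 0.14 (0.00628), and the call was lost without sham replicate 1 (0.49, 0.0644). Uninjured controls of that day held 48.7, 42.7 and 42.8 CPM. They overlapped the 24 h TBI libraries, and the 24 h sham libraries all lay below them. At 1, 6 and 12 h the changes were -0.26, -0.11 and 0.05, and none passed.

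A joint test of the interaction between TBI and the 5 times of library day 2 addressed such turns. GstT4 was the 1 member that passed (adjusted p = 0.0170, edgeR), where 3.68% of all genes did. GstZ2 came next and did not pass (0.0976). The GstT4 call was lost without sham replicate 1 at 24 h (0.0587) or TBI replicate 3 at 24 h (0.0586), and with any 1 of the 12 h sham libraries left out GstZ2 passed as well. On day 1 0 members passed the joint test over 24 h to 15 d with edgeR or DESeq2 (0.407% of all genes with edgeR), and 2 (GstD9 and GstE2) had an unadjusted p under 0.05.

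The remaining theta genes changed by -0.53 to 0.19 between 1 and 24 h on day 2 and none passed. The 3 omega genes, which act among other things as thiol transferases, changed by -0.34 to 0.18, and none passed at a single time. Of the 12 tested epsilon genes, which range from the highest levels of the family to low ones, none passed at a single time between 1 and 24 h. Their changes were mostly below 0 in the first hours: 3 of 12 were positive at 3 h, 3 at 6 h and 2 at 12 h, with class medians of -0.13, -0.26 and -0.17. The delta medians at those times were 0.93, 0.96 and 0.67, over 10 tested genes. These include GstD4, GstD5 and GstD6, low genes that can pass the filter through the TBI libraries. The delta medians therefore describe the tested genes only, and their difference from the other medians was not tested. For all genes tested the medians were 0.02, 0.00 and 0.00.

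GstE9 had the highest level per kb on day 2 and a wide spread. At 1 h it measured 105, 106 and 127 CPM in sham and 65.6, 62.8 and 88.3 CPM in TBI libraries, apart but not called (-0.64 ± 0.34, adjusted p = 0.342, edgeR). At 12 h sham replicate 3 held 178 CPM against 65.2 and 60.0 CPM in the other sham libraries. GstE9 was singled out after its values were seen.

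Averaging the TBI effect over the 5 times of day 2 gave the most precise values. In this average 7 delta genes rose (17.4% of all genes did): GstD1 by 0.76 ± 0.10 (adjusted p = 9.30e-07, edgeR), GstD2 by 1.55 ± 0.24, GstD3 by 0.68 ± 0.13, GstD4 by 1.34 ± 0.25, GstD5 by 2.09 ± 0.36, GstD6 by 2.15 ± 0.32 and GstD9 by 0.41 ± 0.09. No member outside the delta class rose. The 5 members that fell (13.3% of all genes did) were GstZ2 (-0.74 ± 0.11), GstS1 (-0.40 ± 0.06), GstE2 (-0.32 ± 0.10), GstE12 (-0.27 ± 0.10) and GstO2 (-0.18 ± 0.06). The call of GstE12 (0.0368) was lost in 11 of the 30 fits that left out 1 TBI or sham library, and those of the other 11 were kept in all 30. Of the delta genes tested GstD8 (0.68 ± 0.28), GstD10 (0.09 ± 0.15) and GstD11 (-0.06 ± 0.11) did not pass. In this day 2 average 4 of 4 tested fat body markers fell (median -1.20), as did 1 of 4 glial and 1 of 4 hemocyte markers. Of 4 muscle markers 1 rose and 1 fell, and 0 of 4 neuron and 0 of 4 photoreceptor markers passed. The part of these shifts in the changes of members was not tested.

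From 24 h to 15 d, on library day 1, calls at single times became few for all genes. At 24 h 4 of 31 tested members rose (GstD1, GstD5, GstD9 and GstT4; 7.61% of all genes) and 0 fell (7.41%). At 3 d GstT4 alone of the members rose (1.26%) and 0 fell (0.0946%). At 7, 10 and 15 d 0 members passed with edgeR, beside 0.227%, 0.473% and 0.0379% of all genes. With an unadjusted p under 0.05 there were 3 members at each of these times, and DESeq2 called 0, 1 (GstT4) and 0.

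GstD1 measured 131, 177 and 199 CPM in the 24 h sham libraries of day 1 and 340, 293 and 388 CPM in the TBI libraries. The groups were well apart and the change was 1.01 ± 0.24 (adjusted p = 0.00644, edgeR), which became 0.86 without sham replicate 1 and did not pass (0.0600). That sham library had 10.5% unaligned reads, against 4.24% and 4.69% in the other 24 h sham libraries of day 1. Its GST sum (914 CPM) was the lowest of the day. At 3 d sham held 155, 197 and 216 CPM and TBI 153, 309 and 261 CPM, which overlapped. At 7 d sham held 127, 176 and 172 CPM and TBI 226, 244 and 240.2 CPM, and at 10 d 219, 191 and 200.3 CPM against 299, 305 and 225 CPM. Those groups did not overlap, but the changes of 0.58 ± 0.24 and 0.44 ± 0.24 missed the threshold. At 15 d sham held 144 and 184 CPM and TBI 161 and 317 CPM; the change of 0.54 ± 0.29 rested on TBI replicate 2 and was -0.04 without it.

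GstD2 stayed low, at 0.533 to 5.64 CPM in the sham libraries of day 1. At 3 d it measured 1.29, 1.56 and 1.24 CPM in sham and 3.77, 6.84 and 3.42 CPM in TBI libraries, apart but not called (1.75 ± 0.68, adjusted p = 0.326, edgeR). At 15 d sham held 2.01 and 2.89 CPM and TBI 2.76 and 21.8 CPM, so the change of 2.32 ± 0.76 rested on TBI replicate 2. GstD5 measured 0.0444, 0.127 and 0.322 CPM in the 3 d sham and 1.23, 0.933 and 1.27 CPM in the TBI libraries. These did not overlap, and the change of 2.77 ± 0.83 was not called by edgeR (0.113) and was called by DESeq2.

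GstT4 was called at 24 h and at 3 d on day 1, the latter with the limits given below. At 24 h on day 1 sham held 41.9, 55.6 and 51.4 CPM and TBI 74.5, 74.8 and 77.2 CPM (0.60 ± 0.14, adjusted p = 0.00636, edgeR), and without sham replicate 1 the change of 0.50 did not pass (0.0638). Uninjured controls of day 1 held 66.2, 52.8 and 63.5 CPM, below these TBI libraries and overlapping sham. At 3 d sham held 52.5, 50.4 and 52.4 CPM and TBI 75.7, 90.5 and 81.5 CPM (0.67 ± 0.15, 0.0150). At 10 d the values were 62.7, 61.8 and 51.7 CPM and 76.5, 103 and 84.0 CPM (0.58 ± 0.14). TBI libraries exceeded sham libraries at all 3 times without overlap, and the 10 d change missed the threshold (0.0672) and passed with the replicate number as a block. The 3 d call was lost without sham replicate 1, 2 or 3 or TBI replicate 2, where the change ran from 0.60 to 0.67. At 7 d sham held 43.9, 60.6 and 49.6 CPM and TBI 57.7, 70.4 and 66.9 CPM, and at 15 d 55.9 and 69.2 CPM against 58.4 and 86.7 CPM. The groups overlapped at both times and neither change passed. Between same-numbered libraries TBI was the higher in 3 of 3 pairs at 7 d and in 2 of 2 at 15 d, and blocking on replicate number gave 0 called members at these times.

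**Figure D4:**
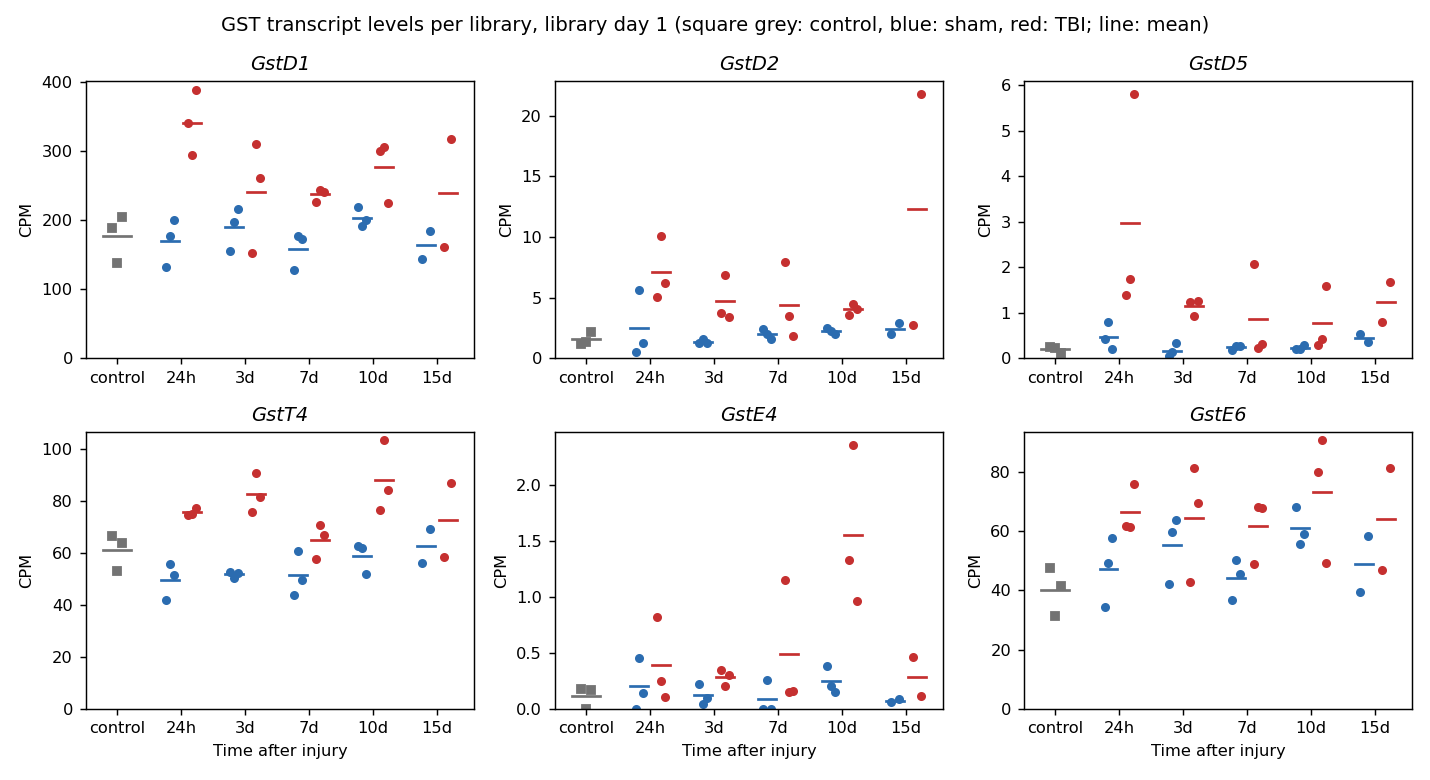
CPM of GstD1, GstD2, GstD5, GstT4, GstE4 and GstE6 in each library of day 1, by days after the procedure, for control, sham and TBI, with group means (n = 3, or 2 at 15 d). GstT4 stood above sham in every TBI library at 24 h, 3 d and 10 d, and single TBI libraries carried much of the height of GstD2 and GstD5.

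GstS1 was called at no time of library day 1. It measured 84.1, 89.7 and 89.4 CPM in the 24 h sham and 74.5, 69.5 and 78.7 CPM in the TBI libraries of day 1, which were apart but not called (-0.24 ± 0.20, adjusted p = 0.453, edgeR). At 3 d the values were 88.3, 103 and 125 CPM in sham and 82.9, 115 and 113 CPM in TBI, and at 7 d 90.2, 132 and 133 CPM and 84.5, 115 and 156 CPM. At 10 d they were 125, 139.5 and 121 CPM and 157, 166 and 103 CPM, and at 15 d 92.4 and 121 CPM and 95.3 and 91.2 CPM. All 4 of these later comparisons overlapped, with changes from -0.20 to 0.15, and at 7 d the direction turned under other scalings (0.00 with TMM factors, -0.01 with RLE factors).

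Averaged over the 5 times of day 1, 7 members rose (10.3% of all genes did) and 0 fell (7.11%); 10 had an unadjusted p under 0.05, all 10 with positive values. GstT4 rose by 0.48 ± 0.07 (adjusted p = 1.7e-05, edgeR), GstD5 by 2.09 ± 0.37, GstD1 by 0.58 ± 0.11, GstD2 by 1.50 ± 0.30 and GstD3 by 0.46 ± 0.13. GstE4 rose by 1.75 ± 0.50 (0.0161) and GstE6 by 0.37 ± 0.12 (0.0406), the only epsilon genes called higher after TBI in any of these comparisons. GstE4 is a low gene, read 27, 33 and 14 times in the 10 d TBI libraries and 6, 3 and 2 times in the sham libraries, and its call was lost without TBI replicate 1 at 7 d or at 15 d. The call of GstE6 was lost in 17 of the 28 fits that left out 1 TBI or sham library and that of GstD3 without TBI replicate 2 at 15 d. In the same average 3 of 4 muscle markers rose (up, Mlc2 and Act57B, the last also at 3 d, by 1.18), and Syt1 of 4 neuron, Eaat1 of 4 glial, Arr2 of 4 photoreceptor and Lsp1beta of 4 tested fat body markers fell. At 3 d the summed muscle markers were 2552, 2106 and 1843 CPM in sham and 3505, 4449.6 and 2637 CPM in TBI libraries. Their part in the changes of GstT4 and the other members was not tested. The 24 h libraries in this average come from the same RNAs as those of day 2, and the other times are separate flies.

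Several members also changed between the uninjured controls and the sham flies, which by then were older. On day 2 0 members differed between sham and control at 1, 3, 6, 12 or 24 h with edgeR, where 0.438%, 0.363%, 3.12%, 5.8% and 1.28% of all genes did, and 0, 3, 8, 6 and 5 members had an unadjusted p under 0.05. On day 1 0 differed at 24 h (2.09%), and 0 at an unadjusted p under 0.05. These comparisons share the 3 controls of a library day. At 3 d GstD9, GstD10, GstO1 and GstZ1 were higher than in controls (10.3%) and 0 were lower (13.6%). At 7 d GstD9, GstO1 and GstO2 were higher (13.3%) and GstE2 and GstE14 lower (16%). At 10 d 6 were higher (19.3%), namely GstD9, GstD10, GstO1, GstO2, GstO3 and GstZ2, and 2 lower (18.6%), GstE2 and GstE14. At 15 d GstD9 was higher (17.5%) and GstE2, GstE3, GstE5 and GstE14 were lower (17.9%). In shares of the 31 tested members, 12.9%, 9.68%, 19.4% and 3.23% were higher on these 4 days in turn, and 0%, 6.45%, 6.45% and 12.9% were lower. The difference from the shares of all genes was not tested.

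In the joint test over the control and 5 sham groups of day 1, 5 members differed, beside 34.3% of all genes. GstE14, known as Noppera-bo for its role in making the moulting hormone ecdysone, had the smallest p (adjusted p = 0.00298, edgeR). Its controls held 32.1, 33.9 and 30.0 CPM. Sham libraries held 30.1, 23.5 and 27.4 CPM after 24 h, 26.9, 26.1 and 27.1 CPM on day 3 and 27.5, 18.5 and 19.1 CPM on day 7. The level was 19.1, 22.9 and 22.1 CPM on day 10, with 17.2 and 14.6 CPM on day 15. No sham library from 3 d on reached the lowest control. At 15 d the change from control was -1.01 ± 0.20 (0.000392), about 2.01-fold lower. TBI libraries held 23.3 and 14.8 CPM at 15 d, which overlapped sham.

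GstE2 followed (adjusted p = 0.0114, edgeR), with controls at 25.7, 16.5 and 21.2 CPM and sham libraries at 16.0, 22.6 and 23.1 CPM after 24 h, 18.4, 20.3 and 23.5 CPM on day 3 and 14.8, 13.8 and 13.0 CPM on day 7. On day 10 sham held 15.2, 13.6 and 14.8 CPM, and on day 15 11.3 and 16.5 CPM. The 7 d and 10 d libraries all lay below the controls. GstO2 (0.0283) went the other way, from 65.2, 52.6 and 64.2 CPM in controls to 74.0, 76.5 and 76.0 CPM at 7 d and 79.1, 82.4 and 70.1 CPM at 10 d. GstZ2 (0.0310) held 66.2, 91.2 and 59.6 CPM in controls and 128, 129 and 86.1 CPM in the 10 d sham libraries, which overlapped. The fifth was GstD9 (0.0333), at 34.9, 29.3 and 36.5 CPM in controls and 41.8 to 49.8 CPM in the 10 d sham libraries.

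**Figure D5:**
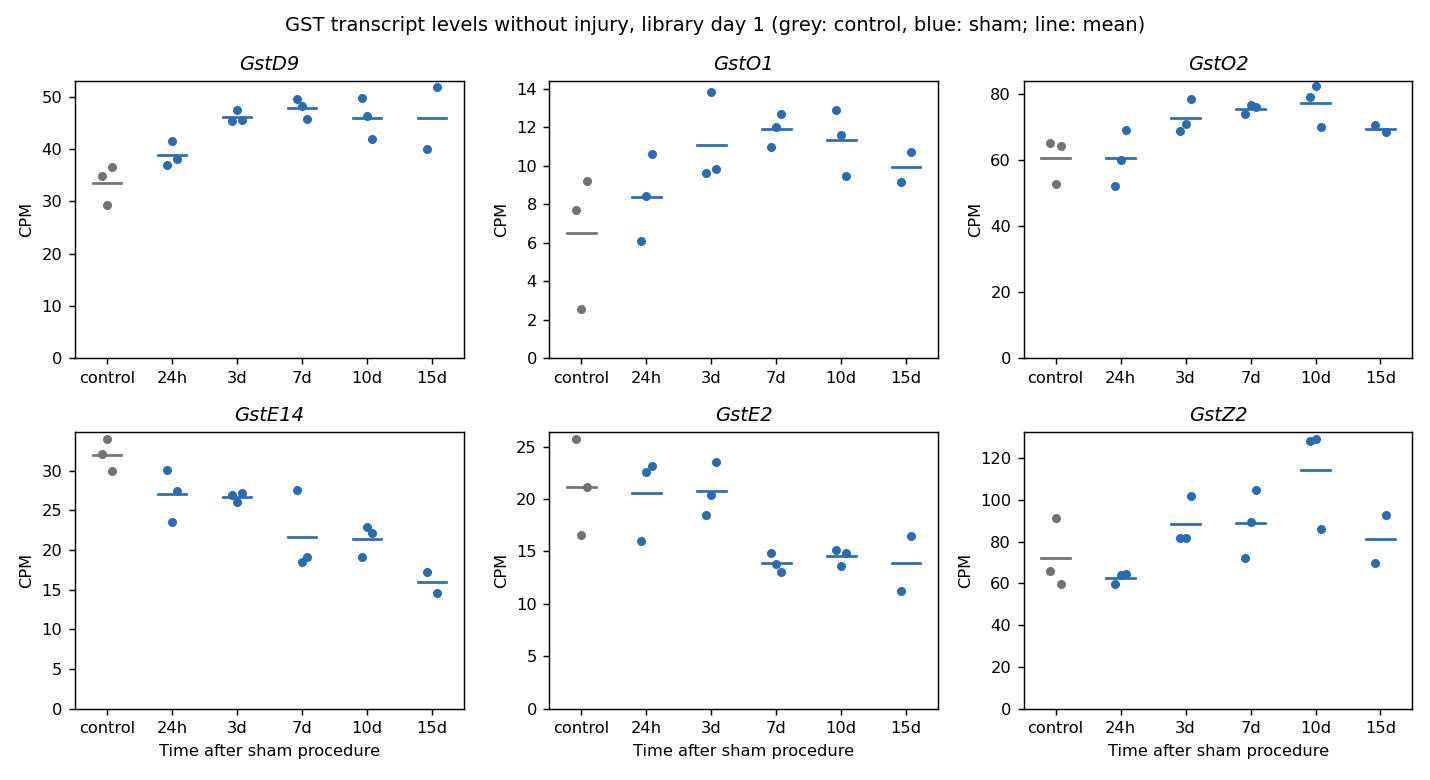
CPM of GstD9, GstO1, GstO2, GstE14, GstE2 and GstZ2 in each control and sham library of day 1, by days after the procedure. Sham libraries of GstE14 ended at 17.2 and 14.6 CPM at 15 d, below all 3 controls, and those of GstD9 stood above the controls from 3 d on.

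The mitochondrial share fell along the same axis, from 12.5%, 15.5% and 10.3% in the day 1 controls to 2.13% and 1.64% in the 15 d sham libraries. Control replicate 2 had the highest share of unaligned reads (10.8%), with TBI replicate 3 at 10 d (10.7%) and sham replicate 1 at 24 h (10.5%) near it. Markers of cell types moved along the axis of time too. Of 4 neuron markers 3 were lower than in controls at 3 and 7 d and 4 at 10 and 15 d, and of 4 muscle markers 2 were lower at 3 d and 3 at 7, 10 and 15 d. The glial Eaat1 was lower and the hemocyte marker NimC1 higher at all 4 times, ninaE was higher from 7 d on, Jon65Aiii of the gut list was higher at 10 d and Lsp2 lower at 15 d. The Jon65Aiii call lies near the floor, with 0, 0.201 and 1.92 CPM in the 10 d sham libraries and 0 CPM in each control. Summed neuron markers ran from 5195 to 6776 CPM in controls and from 4214 to 4407 CPM in the 10 d sham libraries. The part of these shifts in the changes of members was not tested. Scaling without mitochondrial genes left the 5 calls of the joint test in place. Without control replicate 1, control replicate 2 or sham replicate 2 at 10 d 3 members were called, and without sham replicate 1 at 24 h 2 were, with GstE14 and GstE2 among them each time. DESeq2 called 8. Time since the procedure and age cannot be told apart here.

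The genes that make glutathione were followed as a list. Of all genes, 7.39%, 16.5%, 12.1% and 8.62% passed in either direction in the 1, 3, 6 and 12 h comparisons in turn. The 24 h shares were 8.4% (library day 2) and 15% (library day 1), and those of later times are given above. No difference between these shares and the calls of this list or the lists that follow was tested. Of 7 tested genes for glutathione synthesis and salvage, Gclc, the catalytic subunit of glutamate-cysteine ligase, which starts glutathione synthesis, rose at 1 h (0.43 ± 0.08, adjusted p = 0.00035, edgeR) and 3 h (0.45 ± 0.08), the 1 gene of the list to pass there. The list held 0 calls at 6 and 12 h. Gclm, the modifier subunit, fell at 24 h on day 2 (-0.73 ± 0.19), and on day 1 Ggt-1 (0.79 ± 0.20) and Cth (0.56 ± 0.19) rose at 24 h. From 3 d to 15 d none of the 7 passed.

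Of the 5 genes for CncC, Keap1 and their partners (cnc, Keap1, maf-S, ref(2)P and fs(1)h) 0 passed at any of the 10 time and library day combinations with edgeR, while Keap1 at 12 h and maf-S at 6 h had an unadjusted p under 0.05. The median change of this list was 0.09 at 1 h, -0.08 at 3 h and 0.03 at 6 h. These are transcript levels, and CncC is known to be controlled largely through the stability of its protein. Among 5 further genes related to glutathione transferases (se, gfzf, Mgstl, Clic and eEF1gamma), gfzf alone passed at a single time, at 3 h (0.30 ± 0.09). The eye pigment gene se, once named GstO4, is outside the rule by its symbol.

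Of 16 tested antioxidant genes 1 rose and 1 fell at 3 h, 2 rose and 1 fell at 6 h, 1 rose and 1 fell at 12 h, 1 rose at 24 h on day 2 and 2 on day 1, and 0 passed at 1 h and from 3 d to 15 d. Trx2, a thioredoxin, rose at 3 h (0.89 ± 0.16, adjusted p = 0.00018, edgeR), 6 h (0.71 ± 0.16), 12 h (0.77 ± 0.16) and 24 h (0.94 ± 0.16 on day 2, 0.79 ± 0.10 on day 1). The superoxide dismutase Sod1 fell at 3 h (-0.30 ± 0.10) and 12 h (-0.33 ± 0.10), and Sod3 fell at 6 h (-0.79 ± 0.25). The peroxiredoxin Prx6b rose at 6 h (1.12 ± 0.31) and Gtpx, the second gene called at 24 h on day 1, by 0.50 ± 0.12.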

How the data were processed

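RNA of pooled heads was sequenced as polyA-selected, stranded TruSeq libraries on a NextSeq, per the labels' protocols. The deposited table holds raw counts per gene; the submitters' processing notes name FastQC, MultiQC, HISAT2, Picard, HTSeq and DESeq2, and give no build or counting options. Symbols for 17343 of 17481 gene IDs came from the gene name table of the reference, and 138 had none; positions and exonic lengths are from BDGP6.54. The 5 categories of unassigned reads were left out (genes held 67.9% to 86.0% of reads).

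Genes were filtered with filterByExpr and fitted with edgeR 4.0.16 (TMM factors, glmQLFit with robust estimation, glmQLFTest; R 4.3.3), 1 model with all 11 groups per library day, over 10567 genes on day 1 and 10739 on day 2, with Benjamini-Hochberg adjustment over all of them. The biological coefficient of variation was 0.161 and 0.167, with 20 and 22 residual degrees of freedom. The library day was compared within RNAs. Alternatives were RLE factors, no filter, DESeq2 1.42.0, a replicate block, only the groups compared, summed libraries, omission of each library and, added later, scaling without mitochondrial genes. The labels name 55 RNAs, 9 of them sequenced on both library days, while the series text gives 52 RNA samples; the labels were followed.

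The members, the other gene lists and the marker lists were chosen with earlier results of these data known. Values in every library are given for up to 4 members per TBI contrast with the largest change among those called with a mean of at least 2 CPM, always for GstD1 and GstS1, and for up to 4 members with the smallest p in each joint test. GstD3 to GstD6, GstE4, GstE9 and the fifth member of a joint test were added after their values were seen.

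The series text describes sham and TBI samples as paired, and the pairs within a time were not modelled. Same-numbered sham and TBI libraries deviated together from their group means, with every correlation above 0.1, at 1, 6 and 24 h on day 2 and at 3, 7 and 10 d. No sequences are shown.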

Additional observations from a re-analysis of the deposited data

Results flagged for a closer look

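The effect of TBI on GstT4 differed between the 5 times of library day 2 (joint edgeR quasi-likelihood test, adjusted p = 0.0170). The log2 change was -0.39 ± 0.13 at 3 h and 0.57 ± 0.14 at 24 h, with 30.3, 38.3 and 31.5 CPM in the TBI libraries at 3 h and 44.4, 48.9 and 51.0 CPM at 24 h. The sham libraries moved the other way, from 50.1, 43.6 and 36.9 CPM to 29.2, 33.8 and 34.0 CPM. Uninjured controls held 48.7, 42.7 and 42.8 CPM, which overlapped the 24 h TBI libraries and lay above the 24 h sham libraries. Without sham replicate 1 or TBI replicate 3 at 24 h the adjusted p was 0.0587 and 0.0586.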

How the results depend on the processing

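Of 57 named fold changes and tests, 257 of 271 values under other tools, filters, scalings and models kept their direction and their side of the threshold, 10 lost it, 1 gained it and 3 reversed; of 826 values with 1 library left out, 750 kept both, 69 lost the call, 1 gained it and 6 reversed. The 826 values include averages and a joint test with 28 or 30 fits each, and uncalled GstD1 and GstS1 values that had no call to lose. Calls at single times were less stable for some members. Those of GstD4 were lost in 5 of 6 fits at 3 h and 6 of 6 at 6 h. Those of GstS1 at 3 and 6 h and of GstT4 at 3 h and 3 d were lost in 4 of 6. The other single-time calls were lost in 0 to 2 of 6. Scaling without mitochondrial genes, chosen after seeing the data, kept 56 of 57. Where an omission left 1 library in a group at 15 d, that library was assumed to vary like the other groups.

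Counts of called members changed with the tool or the model as follows, and the cause was not tested. DESeq2 called 2 at 3 d (GstD5 and GstT4), 1 at 10 d (GstT4), 8 across control and sham of day 1, 3 across control and sham of day 2 and 2 in the joint TBI test of day 2 (GstT4 and GstZ2). With only the groups compared in the model 3 were called at 1 h (GstD1, GstD3 and GstE9), 2 at 6 h (GstD1 and GstZ2) and 1 at 12 h (GstS1). At 3 h 4 were called (GstD2, GstD4, GstD5 and GstZ2), and GstD1, GstS1 and GstT4 lost their calls.

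With the replicate number as a block, 1 member was called at 10 d (GstT4), 6 at 24 h on day 1 and 5 at 3 h, where GstT4 lost its call (-0.39, adjusted p = 0.0524 by edgeR). Such a block gives each replicate number an offset shared by all groups of a library day. The pairs of sham and TBI libraries within a time were not modelled. The block changed no other call among the named fold changes. At 24 h on day 1, 3 h and 12 h the same-numbered libraries did not all deviate together (lowest correlations 0.0521, -0.309 and -0.0866), and at 15 d there were 2 pairs.

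Leaving out each library in turn gave 0 to 0 called members at 1 h, 3 to 6 at 3 h, 3 to 6 at 6 h, 2 to 6 at 12 h and 2 to 6 at 24 h on day 2. On day 1 it gave 1 to 5 at 24 h, 0 to 1 at 3 d, 0 to 0 at 7 d, 0 to 1 at 10 d and 0 to 0 at 15 d. The averages over times ran from 11 to 13 on day 2 and from 6 to 8 on day 1, the joint TBI tests from 0 to 2 and from 0 to 0, the control and sham tests from 0 to 4 and from 2 to 7, and the library day comparison from 19 to 22. The count fell to 3 at 3 h without sham or TBI replicate 1, to 3 at 6 h without TBI replicate 2 or 3, to 2 at 24 h on day 2 and 1 on day 1 without sham replicate 1, and to 0 at 3 d without any sham replicate or TBI replicate 2. It rose to 6 at 12 h without sham replicate 3 and to 1 at 10 d without TBI replicate 1.

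Of the values that reversed, none had been called. GstS1 at 7 d was -0.00703 with RLE factors, -0.00993 with no filter, -0.00696 with DESeq2 and -0.000493 without mitochondrial genes in the scaling, and from -0.244 to 0.190 with 1 library left out. Leaving out a library gave -0.155 to 0.111 for GstS1 at 3 d, -0.380 to 0.00170 for GstS1 at 15 d and -0.0386 to 0.944 for GstD1 at 15 d. The low delta genes are limited by depth: GstD4, GstD5 and GstD6 rest on counts from 0 to 191 per library at the times named.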
